A study of Bos taurus with 18 samples.

Results

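Candidate miRNAs are small RNA sequences that were predicted from sequencing reads and had no entry in the miRNA database used. The table of plasma miRNAs held 41 of them among 1071 rows, and all 41 were taken by their names. Each is called here *candidate-miR-* followed by the number of its row name. Plasma came from 3 Japanese Black steers at ages of about 20, 25 and 30 months, under the same feeding system and with no treatment or genotype contrast, so that the groups were defined by age and plasma fraction. Each of the 9 plasma samples gave 1 library of RNA from exosomes (EX), small vesicles released by cells, and 1 library of RNA outside exosomes (FC, non-exosomal free circulating), split by a spin-column kit. Every group, EX or FC at 1 age, therefore held 3 libraries from the same 3 steers. With 3 steers, age could not be told apart from anything else that changed between the sampling times.

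A miRNA is cut from a hairpin precursor by the nucleases Drosha and Dicer, and one strand is loaded into an Argonaute protein. Bases 2 to 8 of that strand, the seed, pair with messenger RNAs and largely set which of them are repressed. A prediction from reads needs a hairpin in the genome around the reads, and a sequence that meets this need not be a product of Drosha and Dicer. The miR-2284 and miR-2285 families are large groups of miRNAs annotated in cattle, with many copies of closely related sequence.

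The sequences below are the 8 candidates that were most abundant or passed a test, with the seed in capitals. The first 3 and *candidate-miR-12* were the shortest of all candidates, at 18 nt.
candidate-miR-40: gUCCGGUUguucuucucu
candidate-miR-38: aUAAUGAAcaauaaaacu
candidate-miR-24: uCAGCUGCuggaaaaccu
candidate-miR-30: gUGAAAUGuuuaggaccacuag
candidate-miR-6: aAAACCCGaaugaacuuuuugg
candidate-miR-19: gAUGAGGCucagcgagcccugg
candidate-miR-11: aGAGUUCCcugaacagcaagga
candidate-miR-37: uUUGCACCugagaguggagu

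Of these 8, only *candidate-miR-6* shared its seed with known rows, 4 of them, all of the miR-2284 or miR-2285 families. The other 7 shared it neither with a known miRNA of the table nor with another candidate. Over all 41 candidates the length ran from 18 to 25 nt with a median of 21 nt, against 22 nt for the 1030 known rows. Another list of the study gives a longer form of *candidate-miR-37* with the same seed and extra bases inside it. The form of the count table is shown, so its length is uncertain. GC content over the 41 ran from 16.7% in *candidate-miR-38* to 72.7% in *candidate-miR-31*.

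The next sequences show how close some candidates lay to known miRNAs. Capitals mark the bases that differ within the aligned stretch, and each substitution gives the base of the known miRNA, its position from the 5′ end of the known miRNA, and the base of the candidate. The first 3 pairs are candidates beside abundant known miRNAs, and the last 3 are candidates with a higher mean level than the known row shown.
candidate-miR-12: agcagcaCuguacagggc
bta-miR-103: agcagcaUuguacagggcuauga
candidate-miR-18: GagcuCaucagacugaugu
bta-miR-21-5p: UagcuUaucagacugauguugacu
candidate-miR-26: uCcaaguaauucaggauagU
bta-miR-26b: uUcaaguaauucaggauagGuu
candidate-miR-6: aaaaccCgaaugaacuuuuugg
bta-miR-2285f: aaaaccUgaaugaacuuuuugg
candidate-miR-3: aaaaaguucguuUggguuuucu
bta-miR-2285au: aaaaaguucguuCggguuuucu
candidate-miR-17: gaaaUccgaacgaacuuuuugg
bta-miR-2285bg: aaaCccgaacgaacuuuuug

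The substitutions were U8C for *candidate-miR-12*, U1G and U6C for *candidate-miR-18*, U2C and G20U for *candidate-miR-26*, U7C for *candidate-miR-6*, C13U for *candidate-miR-3* and C4U for *candidate-miR-17*. In all of these candidates but *candidate-miR-3* at least 1 of the changed bases lay in the seed.

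Abundance is given in CPM, the counts of a row scaled to the same total in every library. The totals were 991354 to 2778618 counts in EX and 3615234 to 12088735 in FC, so a level of 3 counts equalled 1.08 to 3.03 CPM in an EX library, and in an FC library it equalled 0.248 to 0.830 CPM. The 30 months libraries differed from the others in their low counts. The lower quartile of the counts above 0 was 37.9 to 68.5 CPM in EX at 30 months, against 4.68 to 11.6 CPM in EX at 20 and 25 months. In FC it was 4.93 to 9.40 CPM at 30 months, against 0.662 to 1.78 CPM before. Values of 0 in EX at 30 months are set beside this quartile as well as the 3-count level where a call rests on them, and the part of this shift in the results was not tested. In 4 FC libraries, steer 3 at 25 months and all 3 at 30 months, the lower part of the deposited count table was shifted by 1 row against the CPM table, and the latter was followed.

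A candidate was counted as detected in a fraction where at least 3 of its 9 libraries had more than 5 CPM. By this rule 20 candidates were detected in EX and 20 in FC, 17 of them in both. *candidate-miR-5*, *-21* and *-32* were detected in EX alone, *candidate-miR-10*, *-20* and *-35* in FC alone, and 18 in neither. The share detected was 48.8% of the candidates in each fraction, against 31.6% of the known rows in EX and 32.8% in FC. The candidates were themselves predicted from reads of this study, so the shares are not a fair comparison.

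The threshold cut through a continuous range of levels. The value in the library ranking 3 from the top decides detection. In EX it was 5.53 CPM for *candidate-miR-29*, just inside, and 4.92 CPM for *candidate-miR-22*, just outside. In FC it was 5.46 CPM for *candidate-miR-20* and 4.98 CPM for *candidate-miR-25*. Only 3 candidates exceeded 5 CPM in all 9 EX libraries and 6 in all 9 FC libraries. The detected candidates were mostly sparse, with a median over candidates of the mean level of 14.3 CPM in EX. In FC it was 10.04 CPM, while the medians of the detected known rows were 83.8 CPM for EX and 68.4 CPM for FC.

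Of the 18 candidates detected in neither fraction, 16 had a mean below 3 CPM in both. Their highest single value was 60.3 CPM, of *candidate-miR-22* in EX of steer 1 at 30 months. *candidate-miR-7* had 0 counts in all 9 EX libraries. Fewer candidates had a count at 30 months, with 17 or 18 of 41 per EX library, against 23 to 31 at the earlier ages. In FC 24 to 33 had a count at 30 months and 38 to 40 before. All rows of the table also had fewer with a count at 30 months, with 252 to 290 per EX library against 368 to 438 before, and 387 to 441 per FC library against 571 to 686. These tallies are not matched exactly. Any count above 0 was taken for the candidates, while the tally over all rows left out the smallest fractional counts.

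Together the 41 candidates held a small part of each library. In EX they took 0.166% ± 0.0228 (SD, n = 3) of the counts at 20 months, 0.149% ± 0.0427 at 25 months and 0.815% ± 0.284 at 30 months. The 3 EX libraries at 30 months lay above the other 6. In FC the shares were 0.128% ± 0.0493, 0.107% ± 0.0243 and 0.170% ± 0.0374, and the libraries at 30 months lay above those at 25 months but overlapped those at 20 months. *candidate-miR-30*, *-38* and *-40* made up 56.9% to 97.0% of this share in every library. The other 38 candidates summed to 190 to 749 CPM in EX at 30 months and 234 to 308 CPM at the earlier ages.

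**Figure D1:**
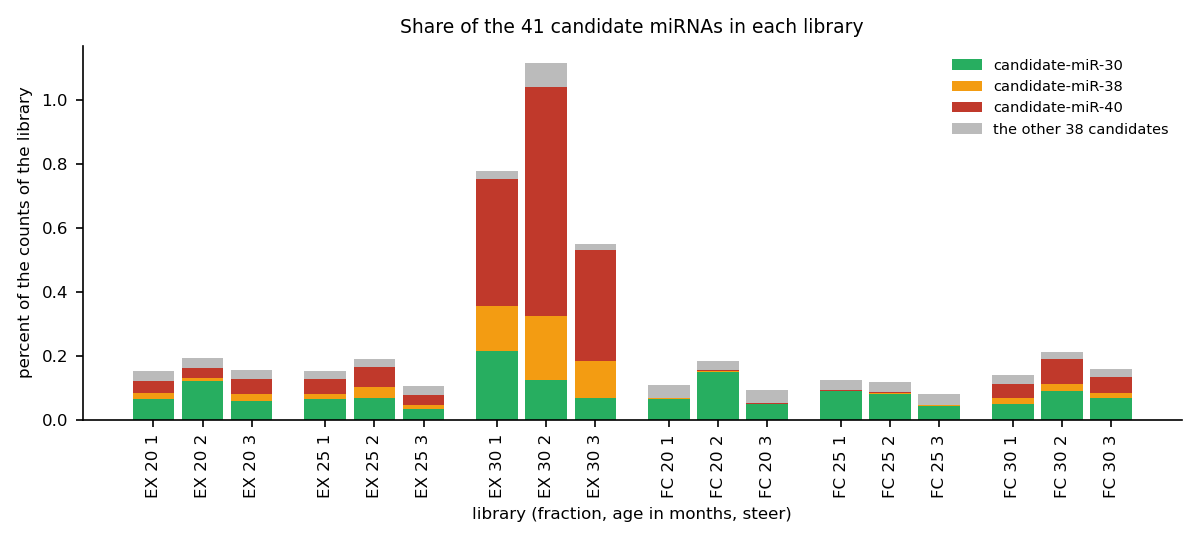
Percent of the counts of each library that fell on the 41 candidates, as stacked bars for *candidate-miR-30*, *-38*, *-40* and the sum of the other 38, with 1 bar for each of 18 libraries named by fraction, age in months and steer. The EX bars at 30 months reach 0.551% to 1.12%, and the other 15 stay at or below 0.212%.

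The candidates differed in how they split between the fractions. *candidate-miR-40* had a mean over 9 libraries of 1915 CPM over EX and 206 CPM over FC, and *candidate-miR-38* had means of 629 and 68.0 CPM. *candidate-miR-30*, the most abundant candidate in FC, averaged 908 CPM over EX and 762 CPM over FC. These means pool the 3 ages and are a description.

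**Figure D2:**
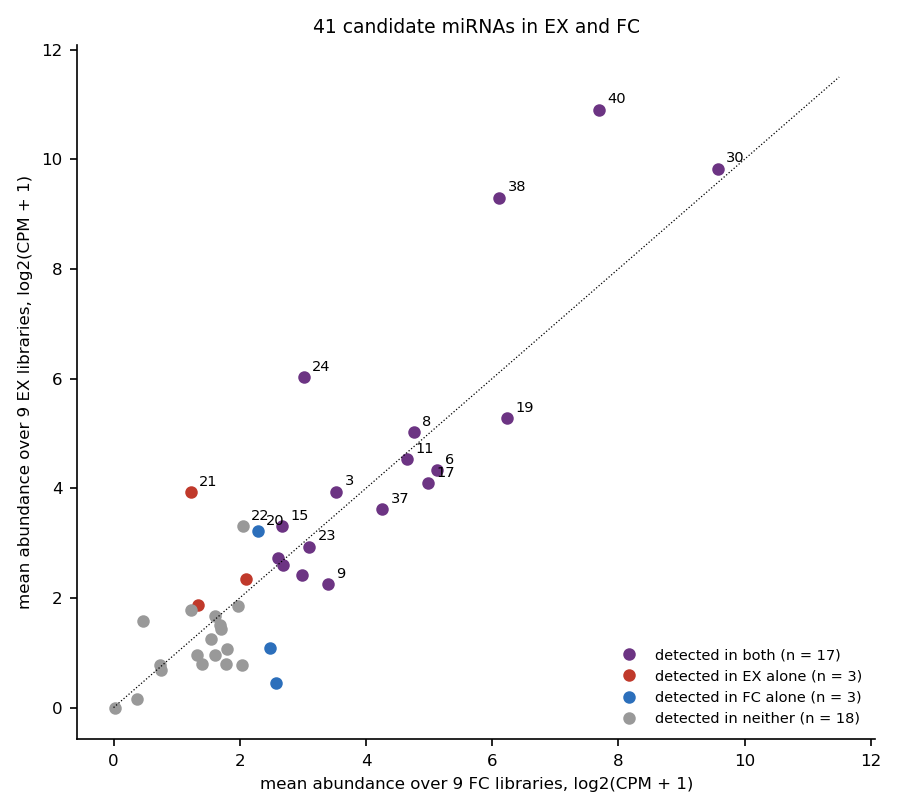
Mean abundance of the 41 candidates over 9 EX libraries (vertical axis) against that over 9 FC libraries (horizontal axis), both as log2(CPM + 1), with the dotted line at equal levels and numbers for the candidates above 3 on either axis. *candidate-miR-40*, *-38*, *-24* and *-21* lie well above the line, while *candidate-miR-30* lies near it and *candidate-miR-19* below it.

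*candidate-miR-40* and *candidate-miR-38* were higher at 30 months than at either earlier age in both fractions, and higher in EX than in FC at every age. No known function can be given for either. They were the only candidates called higher in any comparison. A miRNA was called where the adjusted P (FDR) of the edgeR quasi-likelihood test over all tested rows was below 0.05 and the absolute log2 fold change was above 1.

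In EX *candidate-miR-40* stood at 381, 313 and 462 CPM at 20 months in steers 1, 2 and 3. At 25 months the values were 471, 641 and 325 CPM, and at 30 months 3978, 7173 and 3490 CPM. All 3 libraries at 30 months were above the other 6, and steer 2 was the highest of them. From 25 to 30 months the fitted log2 fold change was 2.89 (SE 0.30, FDR = 0.00295), a fold of 7.39, and from 20 to 30 months it was 3.24 (SE 0.31, FDR = 0.00158). Between 20 and 25 months it was 0.36 (SE 0.28, FDR = 0.998), which did not pass.

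In FC *candidate-miR-40* was at 17.5, 36.7 and 23.6 CPM at 20 months, at 20.8, 52.0 and 28.6 CPM at 25 months, and at 431, 761 and 481 CPM at 30 months. The groups at 30 and at the earlier ages again did not overlap. The log2 fold change from 25 to 30 months was 3.98 (SE 0.28, FDR = 0.000111), a fold of 15.8, and from 20 to 30 months 4.46 (SE 0.29, FDR = 5.13e-05). Steer 2 was the highest of the 3 at each age in FC.

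*candidate-miR-38* behaved alike at a lower level. Its EX values were 166, 100 and 224 CPM at 20 months, 169, 342 and 115 CPM at 25 months, and 1401, 1980 and 1160 CPM at 30 months. The fitted log2 fold change from 25 to 30 months was 2.48 (SE 0.43, FDR = 0.00794) and from 20 to 30 months 2.82 (SE 0.44, FDR = 0.00693). In FC it rose from 5.69, 15.2 and 7.68 CPM at 25 months to 169, 219 and 167 CPM at 30 months, by 4.30 on the log2 scale (SE 0.45, FDR = 0.00124). The FC values at 20 months were 4.88, 17.6 and 6.32 CPM, and the log2 fold change from 20 to 30 months was 4.49 (SE 0.46, FDR = 0.000983). In both fractions no library at 30 months overlapped the earlier ages.

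Leaving out 1 steer ended some of these calls. Without steer 2 neither candidate passed in EX, and without steer 1 *candidate-miR-38* passed in neither fraction. Without steer 3 *candidate-miR-38* did not pass in either fraction from 25 to 30 months. The FC calls of *candidate-miR-40* passed without each steer in turn.

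The pair was also ranked by size among the rows called higher, which leaves out larger fitted changes that were not called, as of *candidate-miR-24* in EX from 25 to 30 months. In EX from 25 to 30 months *candidate-miR-40* and *-38* ranked 1 and 2 by log2 fold change among the 13 rows called higher. In FC they ranked 2 and 1 among the 20 rows called higher from 25 to 30 months, and among the 10 called higher from 20 to 30 months. In EX from 20 to 30 months they ranked 3 and 4 of 12.

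The ratio of *candidate-miR-40* to *candidate-miR-38* moved much less than either level. It was 1.87 to 3.62 in the EX libraries (median 2.83) and 2.09 to 3.73 in the FC libraries (median 3.47). Their sequences share no seed. No known row was near either sequence, with near meaning at most 3 mismatches over at least 16 aligned bases.

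Within each plasma sample both were higher in EX than in FC. For *candidate-miR-40* the EX value was 8.52 to 22.6 times the FC value at 20 and 25 months, and 7.26 to 9.43 times at 30 months. For *candidate-miR-38* it was 5.69 to 35.4 times at the earlier ages and 6.94 to 9.04 times at 30 months. The tests with the plasma sample as a block gave log2 differences of EX over FC for *candidate-miR-40* of 3.92 (SE 0.31, FDR = 6.75e-05) at 20 months, 3.90 (SE 0.30, FDR = 0.000134) at 25 months and 2.66 (SE 0.28, FDR = 0.000201) at 30 months. Those of *candidate-miR-38* were 4.25, 4.45 and 2.57, and all 3 passed, but none did without steer 1.

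At 20 months these 2 were the only candidates called of 23 tested, where 2.41% of all 373 rows tested were called. At 25 months they were again the only ones, with 1.61% of all rows called. The log2 change from 25 to 30 months was smaller in EX than in FC by 1.24 for *candidate-miR-40* (SE 0.38, FDR = 0.0828) and by 1.88 for *candidate-miR-38* (SE 0.64, FDR = 0.100), and neither difference passed.

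**Figure D3:**
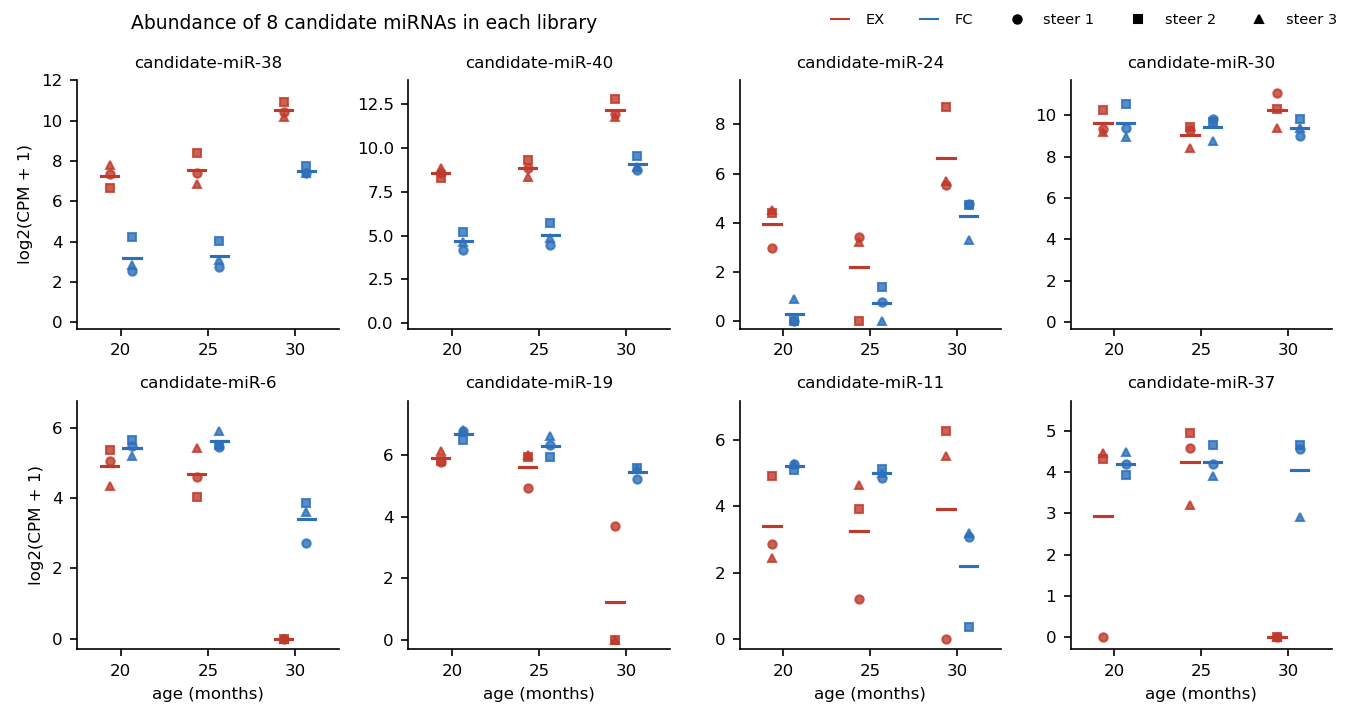
Abundance of 8 candidates in each library as log2(CPM + 1) against age in months, with EX in red and FC in blue, 1 symbol shape for each of the 3 steers and a bar at the mean of the 3 log values. *candidate-miR-38* and *-40* lie higher at 30 months in both fractions, *candidate-miR-6* and *-37* are at 0 in all 3 EX libraries at 30 months, and *candidate-miR-30* overlaps between ages.

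*candidate-miR-24*, also of 18 nt, had higher values at 30 months but passed in no comparison of the main test. This depends on the test, since DESeq2 called it in EX from 25 to 30 months. Between the fractions at 20 months it was called by DESeq2 and by the likelihood ratio test. In EX it was at 6.82, 19.8 and 22.2 CPM at 20 months, 9.78, 0 and 8.21 CPM at 25 months, and 44.8, 417 and 50.8 CPM at 30 months. The 3 libraries at 30 months were above the other 6, but steer 2 was far above the other two. The log2 fold change from 25 to 30 months was 3.52 (SE 1.82, FDR = 0.229). In FC its values were 0 to 1.58 CPM in the 6 earlier libraries and 26.5, 25.2 and 8.94 CPM at 30 months. It passed the filter on low values in FC only through the 3 libraries at 30 months, so a higher level there was built in and its FC test is not given.

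In EX 6 tested rows were of 17 or 18 nt, namely *candidate-miR-12*, *-24*, *-38* and *-40* and the known *bta-miR-331-5p* and *bta-miR-9-3p*. From 25 to 30 months *candidate-miR-24*, *-38* and *-40* had a log2 fold change above 0. *candidate-miR-12* was at -2.48 and did not pass. *bta-miR-331-5p* was at 24.4, 20.1 and 6.56 CPM at 25 months and at 0, 72.6 and 0 CPM at 30 months, and *bta-miR-9-3p* was at 11.6, 0 and 8.21 CPM at 25 months and at 0 in all 3 libraries at 30 months. Neither passed.

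*candidate-miR-30* was abundant in both fractions and was called in no comparison of the main test. Scaling by library totals alone called it in EX from 25 to 30 months. The study assigns it to miR-203a-3p of other mammals, a miRNA known from skin epithelium. Its EX values were 651, 1214 and 582 CPM at 20 months, 630, 676 and 335 CPM at 25 months, and 2162, 1253 and 669 CPM at 30 months. In FC they were 656, 1490 and 497 CPM, then 898, 808 and 434 CPM, then 502, 909 and 670 CPM. Ages and fractions overlapped. The log2 fold change from 25 to 30 months was 0.83 in EX (SE 0.40, FDR = 0.204) and -0.15 in FC (SE 0.35, FDR = 0.762).

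Candidates that were lower at 30 months were of middle or low level. *candidate-miR-6*, whose sequence is near *bta-miR-2285f*, was called lower at 30 months in both fractions. In EX it was at 32.0, 40.7 and 19.4 CPM at 20 months and 23.2, 15.3 and 41.5 CPM at 25 months, and it had 0 counts in all 3 libraries at 30 months. Against the mean 3-count level of those libraries, 2.44 CPM, the mean at 25 months was at least 10.96-fold higher (FDR = 0.0377), and that at 20 months at least 12.6-fold higher (FDR = 0.0382). Of its 6 earlier EX values, 4 were below 37.9 CPM, the lowest of the lower quartiles given above for EX at 30 months. At 30 months its FC mean was at least 4.15-fold higher than the 3-count level of EX (FDR = 0.00271), a call that was lost without steer 3. Each of these FC values was also below that lowest quartile.

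In FC *candidate-miR-6* could be followed at every age. It was at 43.4, 48.9 and 35.8 CPM at 20 months, 42.9, 44.1 and 58.8 CPM at 25 months, and 5.65, 13.6 and 11.1 CPM at 30 months. The groups did not overlap, and it fell by 2.48 on the log2 scale from 25 months (SE 0.46, FDR = 0.0136) and by 2.16 from 20 months (SE 0.45, FDR = 0.0300). Leaving out steer 1 or steer 3 ended the call from 25 months, and leaving out any 1 steer ended that from 20 months and both EX calls. The EX call from 25 months was also lost with a filter at CPM > 1 (FDR = 0.0506) and with no filter (FDR = 0.0519), and that from 20 months with library totals alone (FDR = 0.0543) and at CPM > 1 (FDR = 0.0513).

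*candidate-miR-11* was called lower in FC at 30 months than at 25 months. It was at 37.4, 33.1 and 38.03 CPM at 20 months, 28.0, 34.1 and 31.4 CPM at 25 months, and 7.39, 0.277 and 8.15 CPM at 30 months. It fell by 2.89 on the log2 scale from 25 months (SE 0.83, FDR = 0.0419), and the comparison with 20 months gave -2.98 (SE 0.83, FDR = 0.0667). The call was lost without steer 1 (-3.55), without steer 3 (-3.30) and with scaling by library totals alone. Without steer 2, which had the lowest value at 30 months, it was kept at -2.06. In EX its values at 30 months were 0, 76.7 and 44.3 CPM, against 1.33 to 28.8 CPM before, and 2 of the 3 libraries were above all earlier ones.

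*candidate-miR-19* and *candidate-miR-37* were called only between fractions at 30 months. *candidate-miR-19* was at 53.8, 54.5 and 69.1 CPM in EX at 20 months, 29.3, 60.4 and 62.2 CPM at 25 months, and 12.07, 0 and 0 CPM at 30 months. In FC it was at 109, 87.8 and 112 CPM, then 79.3, 59.9 and 95.7 CPM, then 35.9, 46.2 and 45.2 CPM. The EX values at 30 months lay below all FC values, with a log2 difference of -5.18 (SE 1.33, FDR = 0.0206), and the call was lost without steer 2 (-3.82) and without steer 3 (-3.87). Without steer 1, the steer whose EX value was above 0, the fitted value was -10.56, which then depends on the prior count and is no size of effect. The EX values of steers 2 and 3 were 0, and the FC value of steer 2 lay below the lower quartile of the counts above 0 in its EX library (68.5 CPM), whereas that of steer 3 lay above it (37.9 CPM). For steer 1, whose EX value was above 0, the FC value was below that quartile as well (40.7 CPM). With age it gave log2 fold changes from 25 to 30 months of -5.01 in EX (SE 2.06, FDR = 0.146) and -1.01 in FC (SE 0.33, FDR = 0.0614), which did not pass.

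*candidate-miR-37* was at 0, 19.1 and 21.2 CPM in EX at 20 months, 23.1, 29.9 and 8.21 CPM at 25 months, and 0 in all 3 libraries at 30 months. In FC it ranged from 6.57 to 24.4 CPM over the 9 libraries, with 22.8, 24.3 and 6.57 CPM at 30 months. The FC mean at 30 months was at least 7.35-fold higher than the 3-count level of EX (FDR = 0.0308), and leaving out any 1 steer ended the call. Each of its FC values at 30 months was below the lower quartile of the counts above 0 in EX at that age.

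The number of candidates called in each age comparison is given beside the share of all rows called. In EX from 25 to 30 months 2 of 20 tested candidates were called higher and 1 lower, where 14.2% of all 345 tested rows were called, 3.77% higher and 10.4% lower. From 20 to 30 months the same 3 candidates were called, with 13.3% of all rows, 3.48% higher and 9.86% lower. In FC 2 were higher and 2 lower of 20 from 25 to 30 months, with 15.6% of the 358 rows called, 5.59% higher and 10.1% lower. From 20 to 30 months 2 were higher and 1 lower, with 6.98% called, 2.79% higher and 4.19% lower. In that comparison, without the steer as a block 5 candidates were called.

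Between 20 and 25 months edgeR called no candidate in either fraction, and none had an unadjusted P below 0.05. Of all rows, 0.29% were called in EX and 0% in FC. DESeq2 also called no candidate there. Between EX and FC at 30 months 5 of 23 candidates were called, 2 higher in EX and 3 lower, with 16.1% of the 373 rows called, 2.95% higher and 13.1% lower. For the difference between EX and FC in the change from 25 to 30 months 1 of 23 candidates was called, *candidate-miR-6*, with 5.36% of the rows called. Without the plasma sample as a block 2 candidates were called there.

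The medians of the log2 fold change from 25 to 30 months were -0.55 over the 20 candidates in EX and -0.51 over all rows. In FC they were 0.02 over the candidates and -0.20 over all rows. In EX 4 of the 20 candidates were at 0 in all libraries at 30 months, *candidate-miR-6*, *-9*, *-32* and *-37*, and 1 at 25 months, *candidate-miR-21*. The earlier EX values of *candidate-miR-9*, *-32* and *-37* were all below 37.9 CPM, the lowest lower quartile of the counts above 0 in EX at 30 months. With these set at their 3-count bounds the candidate median stayed at -0.55. From 20 to 30 months in EX the medians were -1.58 over the candidates and -0.64 over all rows, or -1.30 and -0.63 with bounds. Scaling by library totals alone moved the median of all rows by 0.47 in EX from 25 to 30 months, and it moved no called candidate to the other direction.

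**Figure D4:**
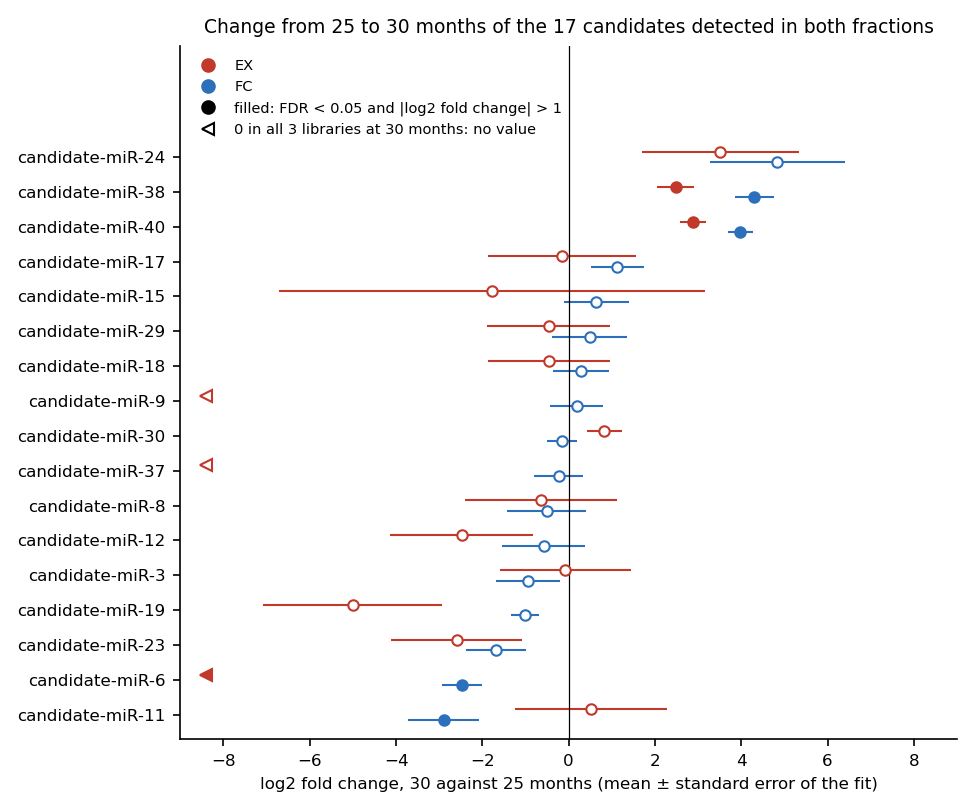
Fitted log2 fold change from 25 to 30 months, with its standard error, of the 17 candidates detected in both fractions, with EX in red and FC in blue, filled where the call passed. *candidate-miR-38* and *-40* are filled on the right in both fractions, *candidate-miR-6* and *-11* are filled on the left in FC, and triangles at the left edge mark 3 candidates with 0 counts in EX at 30 months, for which no value is drawn. The FC point of *candidate-miR-24* is not a result, since that row passed the filter in FC only through the libraries at 30 months.

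*candidate-miR-21* showed the reverse pattern of zeros. In EX it was at 0 in all 3 libraries at 25 months and at 0, 87.8 and 33.2 CPM at 30 months, while in FC it was 1.15 to 3.11 CPM before and 0 in all 3 libraries at 30 months. The groups overlapped in EX, and the change did not pass (FDR = 0.137). It is named here after its values were seen.

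By sequence, 11 candidates were nearest to a miR-2284 or miR-2285 row, 5 to another known miRNA, and 25 had no near known row. The 11 were *candidate-miR-1* to *-7*, *-13*, *-17*, *-29* and *-39*, with 5 detected in EX and 4 in FC. The 25 without a near row held most of the abundance, with summed means of 3682 CPM over EX and 1244 CPM over FC. The 11 summed to 62.9 and 88.2 CPM, and the 5 to 18.1 and 19.6 CPM. The 148 known rows of the 2 families summed to 3873 CPM over EX and 3936 CPM over FC.

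Seeds were shared within the family group. *candidate-miR-2*, *-3* and *-4* had the seed AAAAGUU, as did 12 known rows, and *candidate-miR-1* and *-39* had AAAAAGU with 2 known rows. All of these known rows belonged to the miR-2284 and miR-2285 families. Of the candidates called between ages, *candidate-miR-6* was in the family group, and *candidate-miR-11*, *-38* and *-40* had no near known row.

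Some candidates matched a known miRNA without any mismatch. These are shown with the seed in capitals, because a read of either can carry the same letters.
candidate-miR-2: aAAAAGUUaguuuagguuu
candidate-miR-4: aAAAAGUUuguuuggguuuu
candidate-miR-14: aUAAUACAaccugauaagu

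*candidate-miR-2* lay whole within *bta-miR-2285am-5p*, *candidate-miR-4* within *bta-miR-2284z* and *candidate-miR-14* within *bta-miR-374a*. Their values are uncertain, since the counting could split reads between the rows. None of the 3 was detected in either fraction.

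Many near candidates were rare beside their known neighbour. *candidate-miR-18* had means of 4.36 CPM over EX and 6.93 CPM over FC, which were 0.00548% and 0.00684% of *bta-miR-21-5p*, an abundant miRNA of many tissues. *candidate-miR-26* stood at 0.0133% and 0.0121% of *bta-miR-26b*, and *candidate-miR-12* at 0.178% and 0.182% of *bta-miR-103*. *candidate-miR-29* was at 0.195% and 0.222% of *bta-miR-2284x*.

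The order was the other way for a few. By their means *candidate-miR-6* was at 141% of *bta-miR-2285f* in EX and 137% in FC. This was the most abundant of 4 known rows equally near, and in single libraries the share ran from 65.1% to 311% in EX and from 28.8% to 178% in FC, so the order turned in some. *candidate-miR-3* averaged 14.3 CPM over EX and 10.5 CPM over FC, where *bta-miR-2285au* had 1.15 and 0.808 CPM. *candidate-miR-17* had 16.1 and 30.6 CPM, where *bta-miR-2285bg* had 0.135 and 0.0652 CPM. The study takes *candidate-miR-3* and *bta-miR-2285au* to be a single miRNA with a base that differs between cattle breeds, so their levels need not be those of separate miRNAs. These pairs differ by 1 base in the aligned stretch, and how reads that could be placed in both rows were counted was not tested.

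**Figure D5:**
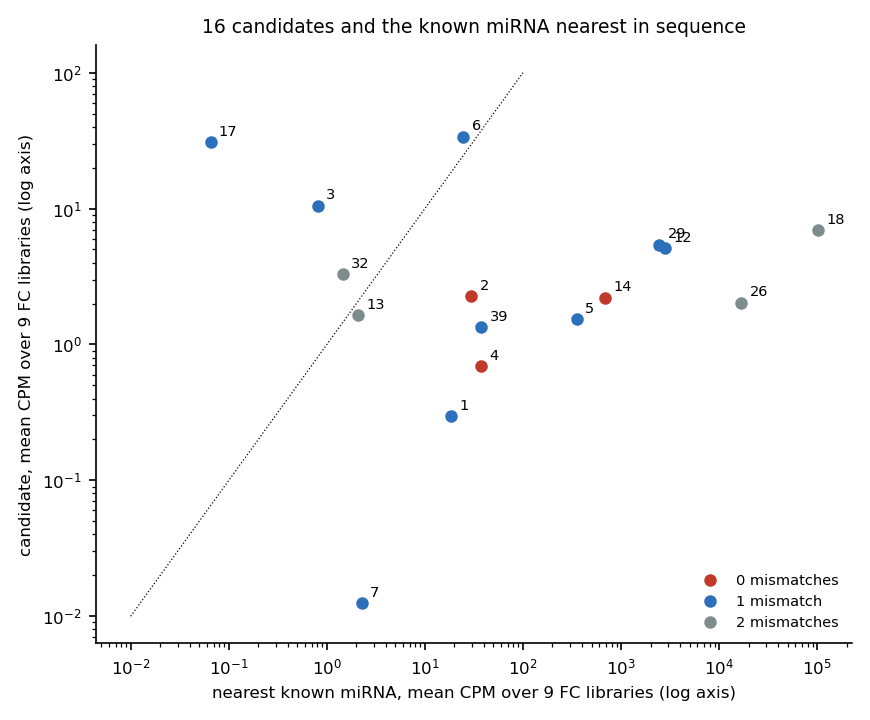
Mean CPM over 9 FC libraries of 16 candidates (vertical log axis) against that of the known miRNA nearest in sequence (horizontal log axis), coloured by the number of mismatches, with the dotted line at equal levels. *candidate-miR-17*, *-3*, *-6* and *-32* lie above the line, and *candidate-miR-18* and *-26* lie far below it.

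Counts that were not whole numbers were more frequent among near candidates. In the 14 libraries whose rows needed no shift, 123 of 179 counts above 0 of the 16 near candidates were not whole numbers, or 68.7%. For the 25 candidates with no near known row, it was 26 of 234, or 11.1%. Of these 25, 5 had such a value. The cause of the values that were not whole was not tested.

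A few members of the family group also paired with each other. *candidate-miR-17* and *candidate-miR-29* were complementary over 14 bases in a row, shown in capitals, and *candidate-miR-3* and *candidate-miR-17* over 12 bases.
candidate-miR-17: gaaauCCGAACGAACUUUUugg
candidate-miR-29: ugAAAAGUUCGUUCGGgcuuuu

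Complementary stretches of up to 20 bases were found with known rows, as between *candidate-miR-4* and *bta-miR-2285y*. Such a stretch is a description of the letters and does not place the sequences on one hairpin. In FC *candidate-miR-17* ranged from 7.35 to 49.7 CPM and *candidate-miR-29* from 2.37 to 11.6 CPM, and neither was called in any comparison.

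The known miR-2284 and miR-2285 rows were read beside the candidates of the same kind. From 25 to 30 months in EX 3 of the 24 tested known rows were called lower and 0 higher, or 12.5% where 10.4% of all rows were lower, with a median log2 fold change of -2.42, or -1.39 with rows at 0 at their bounds. In FC 2 of 28 were lower and 0 higher, or 7.14% where 10.1% of all rows were lower, with a median of -0.76. Between EX and FC at 30 months 9 of 29 were lower in EX and 0 higher, or 31% where 13.1% of all rows were lower. The median was -2.04, or -1.02 with bounds, against -0.79 over all rows, or -0.66 with bounds. In EX at 30 months 13 of the 29 were at 0 in all libraries, as were 65 of all 373 rows. Of the candidates nearest to this family, *candidate-miR-6* was called lower in these 3 comparisons, and the others tested were not called. From 25 to 30 months *candidate-miR-3*, *-17* and *-29* had log2 fold changes of -0.08, -0.16 and -0.46 in EX. *candidate-miR-5* was at 7.55, 6.53 and 0.615 CPM in EX at 25 months and at 0, 0.504 and 0.185 CPM at 30 months. The latter counts all rounded to 0 before the fit. Its fitted value of -6.99 (SE 3.00, FDR = 0.173) therefore depends on the prior count and is no size of effect. In FC *candidate-miR-3*, *-17* and *-29* were at -0.94, 1.13 and 0.49.

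Known miRNAs of other cell types were set beside the candidates, since plasma collects RNA from many tissues. The summed level of 6 epithelial miRNAs was 11697 to 16958 CPM in EX at 30 months and 4361 to 9175 CPM before, and 11730 to 19906 CPM against 3776 to 10429 CPM in FC. It was thus higher at 30 months, as were *candidate-miR-38* and *-40*. All 6 had counts in every library, and *bta-miR-141* was the most abundant of them in each. From 25 to 30 months 5 of the 6 had log2 fold changes above 0 in both fractions, of which only *bta-miR-141* in FC was called, and *bta-miR-205* was at -0.28 in EX and -0.57 in FC. The 5 were at 0.18 to 1.11, below the 2.48 to 4.30 of *candidate-miR-38* and *-40*. *candidate-miR-30*, which the study assigns to a miRNA known from skin epithelium, was at 0.83 in EX and -0.15 in FC, and neither value passed. The sum of 2 lymphocyte miRNAs was lower at 30 months, as was *candidate-miR-6*. In EX the sum was at 13723 to 27464 CPM against 113415 to 324692 CPM before, and in FC at 14651 to 26926 CPM against 79355 to 230827 CPM. The sums of the 3 red cell and of the 2 liver miRNAs overlapped between ages in both fractions, with *bta-miR-885* of the liver list at 0 in 4 libraries. Within the red cell list *bta-miR-451* was called lower in EX from 25 to 30 months, by a log2 fold change of -2.20 (SE 0.51). It stood at 5882 to 8502 CPM at 30 months against 12461 to 43037 CPM before, in the direction of *candidate-miR-6*. The others were not called in EX, with *bta-miR-144* at -1.76 and *bta-miR-486* at -0.04. In FC *bta-miR-451*, *bta-miR-144* and *bta-miR-486* were at -1.68, -0.56 and 0.41, and none was called. Within the liver list, whose sum was nearly all *bta-miR-122*, *bta-miR-885* was called lower in FC from 25 to 30 months, by a log2 fold change of -7.14 (SE 1.06). It stood at 0, 0 and 0.526 CPM at 30 months against 19.8 to 66.6 CPM before, in the direction of *candidate-miR-6* in FC. The value above 0 was below the 3-count level of its library, 0.789 CPM, so the fitted value is no reliable size of effect. In the same comparison *bta-miR-122* was at 0.72, the other direction. In EX *bta-miR-122* was at 1.04 and *bta-miR-885* at -3.56, and none of these 3 values was called. Fewer cells of a type and less RNA per cell cannot be told apart in plasma, and the part of these lists in the changes of the candidates was not tested.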

How the data were processed

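The authors extracted EX and FC RNA from plasma with 1 kit, sequenced small RNA, trimmed it with Cutadapt 5.0 and Trimmomatic 0.39, and called known and candidate miRNAs with miRDeep2 on a Japanese Black genome. The authors made the estimated counts per miRNA with the miRDeep2 quantifier, and these expected counts were deposited with the mature sequences and need not be whole. The authors also deposited CPM values scaled to the library total, in a table that ends in a row of totals. No genome was used here, so no locus is given.

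The members and lists were chosen with earlier results of these data known. In 4 FC libraries counts were recomputed from the CPM rows, where the lower 113 rows ranked like FC at 20 months (Spearman 0.772 to 0.947, against 0.119 to 0.213 as deposited, a description). Counts were rounded, kept at CPM > 5 in at least 3 libraries, scaled by TMM and tested with edgeR 4.0.16 (R 4.3.3, limma 3.58.1), quasi-likelihood, with FDR by Benjamini and Hochberg over all rows. Age tests used the 9 libraries of a fraction with steer as a block. Fraction tests used 18 libraries with plasma sample as a block. The replicate numbers name the same 3 steers at each age, and deviations of the same plasma sample correlated by 0.202 between EX and FC, those of the same steer by 0.0234 in EX and 0.0839 in FC across ages. No library was a copy of another in its group, with a chi-square per degree of freedom of at least 196 over 18 pairs.

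Alternatives were no block, DESeq2 1.42.0, a likelihood ratio test, other scalings, other filters, the deposited rows, and leaving out each steer. The share of counts under the deposited rows and without each steer was added after seeing the data. Named candidates are those called in any of 10 comparisons and the 5 most abundant detected ones of each fraction. The code was tested on simulated data. Tables were made in pandas 2.3.3, numpy 2.4.6 and Python 3.11.15, and figures in matplotlib 3.10.9. Counting levels cover counting error only, since PCR reads are not independent molecules.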

Additional observations from a re-analysis of the deposited data

Results flagged for a closer look

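The change of *candidate-miR-6* from 25 to 30 months differed between the fractions by the interaction test of edgeR (fitted log2 difference of EX minus FC -7.57, SE 1.45, FDR = 0.0215), where 5.36% of all 373 rows were called and 1 of 23 candidates. Since all 3 EX libraries at 30 months were at 0, this fitted value depends on the prior count and is no size of effect. The FC values at 30 months, 5.65, 13.6 and 11.1 CPM, were below the lower quartile of the counts above 0 in each EX library at that age, 37.9 to 68.5 CPM. The call was lost with no filter, under the deposited rows and without each of the 3 steers in turn. Without the replicate block 2 candidates were called, the second being *candidate-miR-21*.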

How the results depend on the processing

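For the 8 named candidates, 42 pairs of candidate and comparison were called under at least 1 setting. Of their 460 values under alternatives, 364 kept direction and call, 47 lost the call, 44 gained it and 5 reversed. The number of candidates called from 25 to 30 months in EX was 3, and 6 with DESeq2, 9 with the likelihood ratio test and 0 to 1 without 1 steer. From 20 to 30 months in EX it was 3, and 5, 7 and 0 to 2. From 25 to 30 months in FC it was 4, and 7 with the likelihood ratio test, 7 with no filter, 2 under the deposited rows and 1 to 6 without 1 steer. From 20 to 30 months in FC it was 3, and 6 with DESeq2, 6 with the likelihood ratio test, 8 with no filter, 1 under the deposited rows, 1 to 3 without 1 steer and 5 without the replicate block. Between fractions at 20 months it was 2, with 1 under the deposited rows and 1 to 2 without 1 steer, and at 25 months 2, with 1 to 2. At 30 months it was 5, and 9 with the likelihood ratio test, 9 under the deposited rows and 2 to 3 without 1 steer. For the interaction it was 1, and 2 without the replicate block, 4 with DESeq2, 7 with the likelihood ratio test, 0 with no filter, 4 under the deposited rows and 0 without any 1 steer. Detection at CPM > 10 gave 12 candidates in EX and 11 in FC, at CPM > 1 37 in FC, and CPM > 5 in all 9 libraries 3 and 6.

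Under the deposited rows the log2 fold changes in FC reversed to -3.64 and -4.53 for *candidate-miR-38* and -10.14 and -10.94 for *candidate-miR-40* (30 against 25 and 20 months), and *candidate-miR-19* between fractions at 30 months to 1.65. That setting reads the neighbouring row. The replicate block changed the number of calls by over 1.5 times only in the comparisons named with it. The cause of the other moves was not tested, except that leaving out a steer leaves fewer samples.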
